A study of Homo sapiens with 4 samples.

Results

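SKP2 and 9 other genes of the SCF ubiquitin ligase and its regulators were followed in RD and JR1 cells after SKP2 knockdown. The 10 genes were taken by name from the 39323 genes of each table: SKP2, SKP1, CUL1, RBX1, CKS1B, CKS2, FBXW7, BTRC, FZR1 and CAND1. RD and JR1 are established lines of fusion-negative rhabdomyosarcoma, a childhood tumour of muscle lineage, and both carry mutated p53. Cells of each line received a lentivirus with a puromycin resistance gene and either an shRNA against SKP2 (shSKP2) or a scrambled control (shSCR). The study's infection protocol selects cells with puromycin at a higher dose in JR1 than in RD, so dose and line cannot be told apart. Its RNA-seq used only 1 shRNA against SKP2, so effects of that shRNA on other genes cannot be told apart from those of SKP2 loss. Cells with shSKP2 are labelled as SKP2 knockdown and cells with shSCR as WT, all were grown in serum-containing medium, and the time from infection to RNA extraction is not given in the sources used here. There was 1 poly-A selected library for each line and condition, 4 in all, so every difference rests on single libraries, without a spread between replicates, and no test was run. In such bulk RNA, fewer cells of a kind and less RNA per cell cannot be told apart.

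The SCF complex attaches ubiquitin to proteins and so marks them for the proteasome. CUL1 is its scaffold, RBX1 is the RING subunit that brings the ubiquitin-loaded enzyme, and SKP1 links CUL1 to an F-box protein, the exchangeable receptor that picks the substrate. SKP2 is the F-box protein that, with the small cofactor encoded by CKS1B, binds phosphorylated p27Kip1 and drives cells into S phase. FBXW7 and BTRC are other F-box receptors, CAND1 helps receptors to exchange on CUL1, and FZR1 encodes Cdh1, the activator of the anaphase-promoting complex that in turn degrades SKP2 in G1 phase.

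Values are TPM, the length-corrected share of each gene in the transcripts of its library, so that levels can be compared between genes of a library. The depth of the libraries is unknown. A change is log2 of the ratio of TPM + 1, which understates the change of low genes, and a gene is called when the change is at least 1 in size. All 10 genes were among the 12983 tested genes, which have a mean of at least 1 TPM. Short structural RNAs held a larger share of the summed TPM with shSKP2, 69.1% against 58.6% in RD and 72.1% against 66.5% in JR1. Over all tested genes the median log2 change with shSKP2 was -0.27 in RD and -0.21 in JR1. It was 0.12 and 0.013 after TPM were recomputed without those RNAs. Muscle lineage markers were present in all libraries, with MYOD1 between 87.0 and 131 TPM and DES between 36.0 and 51.3 TPM, whereas PTPRC, EPCAM, CDH1, PECAM1 and CDH5, markers of leucocytes, epithelium and endothelium, had at most 0.160 TPM. The macrophage marker CD68 had 2.28 to 2.87 TPM.

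The targeted transcript was strongly reduced in both lines. SKP2, on chromosome 5 from base 36152067 to base 36184319 of GRCh38, had 92.8 TPM in RD shSCR, 7.40 TPM in RD shSKP2, 46.5 TPM in JR1 shSCR and 2.72 TPM in JR1 shSKP2. Both knockdown libraries thus lay below both control libraries. SKP2 TPM fell 12.5-fold in RD and 17.1-fold in JR1, leaving 7.40 TPM against 2.72 TPM. Among all tested genes 12 had a lower change than SKP2 in RD and 24 had one in JR1. The log2 change of TPM + 1 in JR1 was 0.19 below that in RD, and 55.6% of the tested genes differed at least as much between the lines. This difference depends on the settings. With 0.1 TPM added the changes of SKP2 were -3.63 in RD and -4.05 in JR1. Without the short structural RNAs the change in JR1 was 0.53 below that in RD.

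With shSCR, SKP2 was the second most abundant of the 10 transcripts in RD and the third in JR1, and with shSKP2 it was the ninth in RD and the last in JR1. CKS1B was the most abundant in every library, from 47.1 TPM in JR1 shSKP2 to 210.5 TPM in RD shSCR. The other core and exchange genes lay close together: in RD shSCR the highest of SKP1, CUL1, RBX1 and CAND1 was 1.36-fold above the lowest, and in JR1 shSKP2 it was 1.82-fold above it. With 1 library per condition, neighbours in this order cannot be separated by a spread between samples.

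**Figure D1:**
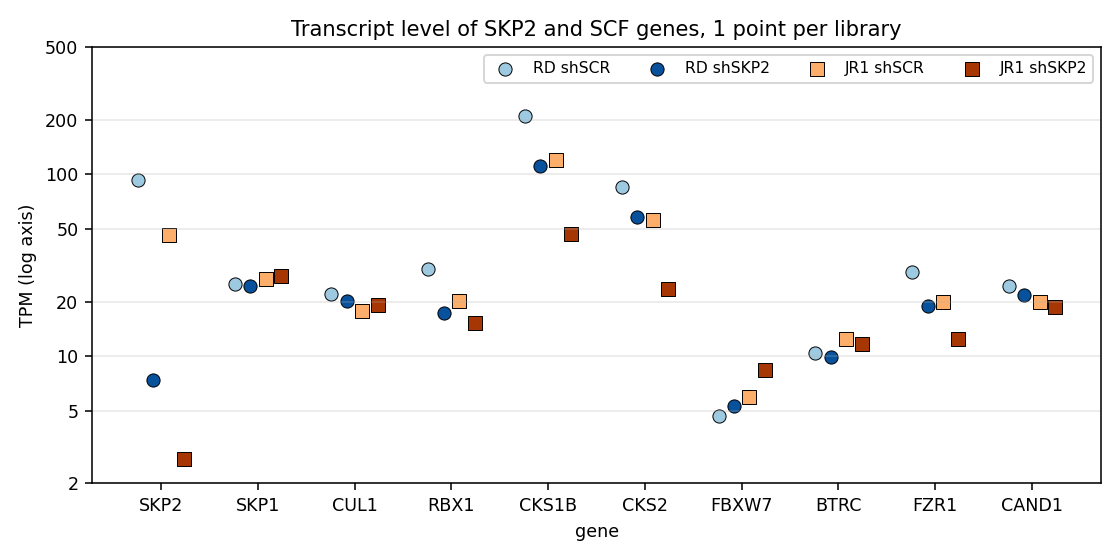
TPM of the 10 genes (log axis) in each of the 4 libraries, circles for RD and squares for JR1, pale for shSCR and dark for shSKP2. SKP2 drops in RD from 92.8 to 7.40 TPM and in JR1 from 46.5 to 2.72 TPM, CKS1B is the highest point of every library, and SKP1, CUL1 and CAND1 stay between 17.8 and 27.8 TPM throughout.

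Of the core subunits, SKP1 and CUL1 had similar levels in all libraries. SKP1, the adaptor, on chromosome 5 from base 134148935 to base 134176950, had 25.0 TPM in RD shSCR, 24.4 TPM in RD shSKP2, 26.5 TPM in JR1 shSCR and 27.8 TPM in JR1 shSKP2. With TPM as deposited, its 4 values were the closest together of the 10 genes on the log2 scale. The log2 changes were -0.03 in RD and 0.07 in JR1. CUL1, the scaffold, on chromosome 7 from base 148697756 to base 148801110, had 22.1 and 20.2 TPM in RD and 17.8 and 19.1 TPM in JR1, with shSCR given first. These are log2 changes of -0.12 and 0.09, so that neither SKP1 nor CUL1 was called in either line. Of the windows of 100 bases in the SKP1 transcript 11.2% are also found in transcripts of other genes, and 0 of those of CUL1.

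RBX1 had a lower change than SKP1 and CUL1 in both lines. This RING subunit, on chromosome 22 from base 40951378 to base 40973309, had 30.0 TPM in RD shSCR, 17.4 TPM in RD shSKP2, 20.2 TPM in JR1 shSCR and 15.2 TPM in JR1 shSKP2. Both knockdown libraries were below both control libraries, although the log2 changes of -0.75 in RD and -0.39 in JR1 did not reach the limit for a call. The ratio of RBX1 to SKP1 within a library, which no scaling of the library can move, went from 1.20 to 0.712 in RD and from 0.763 to 0.549 in JR1. The ratio of CUL1 to SKP1 moved less, from 0.885 to 0.828 in RD and from 0.673 to 0.688 in JR1.

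Set against the core, the SKP2 transcript went from excess to shortage. There were 3.72 SKP2 transcripts for each SKP1 transcript in RD shSCR and 0.303 in RD shSKP2. In JR1 the same ratio was 1.75 with shSCR and 0.0980 with shSKP2. Against CUL1 the ratio went from 4.20 to 0.366 in RD and from 2.61 to 0.142 in JR1, and against RBX1 from 3.09 to 0.425 and from 2.30 to 0.179. In both lines SKP2 thus outnumbered each of the 3 core transcripts in the control and was outnumbered by each of them after knockdown, by these transcript ratios, which say nothing of protein amounts.

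The other substrate receptors were not called in either line. FBXW7, the receptor for phosphorylated cyclin E and MYC, on chromosome 4 from base 152320544 to base 152536873, had 4.67 TPM in RD shSCR, 5.34 TPM in RD shSKP2, 5.99 TPM in JR1 shSCR and 8.41 TPM in JR1 shSKP2. With TPM as deposited FBXW7 was the only one of the 10 genes with a positive change in both lines. The change was 0.16 in RD and 0.43 in JR1, the latter above that of 91.5% of the tested genes. Without the short structural RNAs SKP1, CUL1, BTRC and CAND1 were also positive in both lines. BTRC, which encodes the beta-TrCP receptor for phosphorylated beta-catenin and I-kappa-B, on chromosome 10 from base 101353808 to base 101557313, had 10.4 and 9.85 TPM in RD and 12.4 and 11.7 TPM in JR1. Its change was -0.08 in both lines. FBXW7 overlaps the RNA gene MIR4453HG, which had at most 1.35 TPM.

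Of the summed TPM of these 3 receptors, SKP2 held 86.0% in RD shSCR and 32.8% in RD shSKP2. In JR1 it held 71.6% with shSCR and 11.9% with shSKP2. Among these 3, BTRC held the largest share after knockdown, 43.6% in RD and 51.2% in JR1. FBXW11, a paralog of BTRC, is not part of this sum and was above BTRC in every library. The ratio of FBXW11 to BTRC was 1.53 and 1.73 in RD and 1.35 and 1.9 in JR1, with shSCR given first. The shares thus do not rank BTRC among all receptors. FBXW7 and BTRC together had 15.1 and 15.2 TPM in RD and 18.4 and 20.1 TPM in JR1, against a sum of the 3 that went in RD from 108 to 22.6 TPM and in JR1 from 64.9 to 22.8 TPM.

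**Figure D2:**
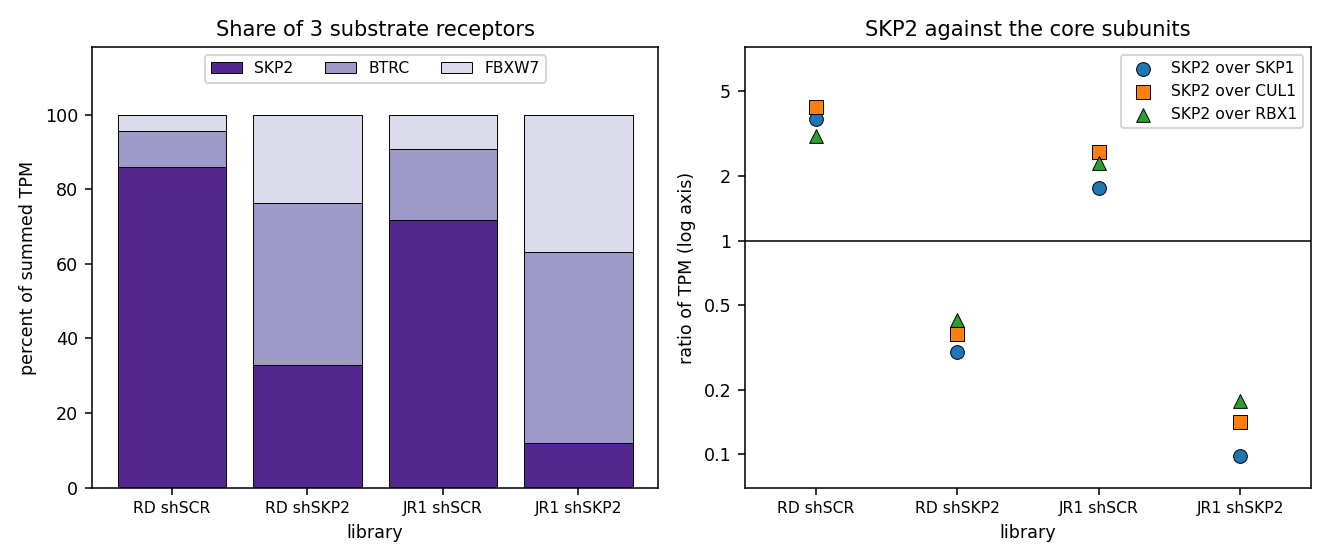
Left, percent of the summed TPM of SKP2, BTRC and FBXW7 held by each in the 4 libraries. Right, ratio of SKP2 TPM to that of SKP1, CUL1 and RBX1 in each library (log axis, line at 1). The SKP2 share drops from 86.0% to 32.8% in RD and from 71.6% to 11.9% in JR1, and all 3 ratios lie above 1 with shSCR and below 1 with shSKP2.

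The cofactors CKS1B and CKS2 were lower with shSKP2 in both lines and fell past the limit in JR1. CKS1B, the cofactor SKP2 needs to bind p27Kip1, lies on chromosome 1 from base 154974681 to base 154979251, and CKS2, its paralog, which also binds cyclin-dependent kinases, on chromosome 9 from base 89311195 to base 89316703. Their promoters are shown because they are the members called besides the target, a choice made after their values were seen. The windows hold 250 bases before and 50 after the annotated start, both on the plus strand, from RefSeq on GRCh38.p14 (CKS1B chr1:154974431-154974730, CKS2 chr9:89310945-89311244), with matches to CCAAT and to TTTGAA on either strand in capitals. TTTGAA is the core of the cell cycle genes homology region (CHR) and CCAAT the box bound by NF-Y, elements known from promoters of genes expressed in G2 and M phase.
CKS1B: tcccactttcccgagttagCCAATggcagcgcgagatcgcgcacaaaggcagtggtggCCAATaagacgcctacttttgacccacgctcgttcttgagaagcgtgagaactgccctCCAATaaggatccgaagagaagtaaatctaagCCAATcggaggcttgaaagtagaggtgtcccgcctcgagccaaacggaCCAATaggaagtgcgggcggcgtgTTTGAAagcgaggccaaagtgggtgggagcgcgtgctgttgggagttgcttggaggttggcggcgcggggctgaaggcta
CKS2: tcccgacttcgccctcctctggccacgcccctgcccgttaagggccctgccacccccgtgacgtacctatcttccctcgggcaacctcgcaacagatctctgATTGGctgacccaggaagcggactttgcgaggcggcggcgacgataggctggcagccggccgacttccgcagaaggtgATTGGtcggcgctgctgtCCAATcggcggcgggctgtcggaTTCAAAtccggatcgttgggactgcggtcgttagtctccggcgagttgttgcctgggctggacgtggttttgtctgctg
The CKS1B window holds 5 CCAAT boxes and 1 CHR match, which begins 30 bases before the start. The CKS2 window holds 3 CCAAT boxes and 1 CHR match, which begins 29 bases before the start. Of 35116 RefSeq promoter windows of this length, 34.6% hold CCAAT and 15.2% hold TTTGAA. Windows were found for 9 of the 10 genes, 17 windows in all. CCAAT was also found in a window of CUL1 and of FBXW7, and TTTGAA in a window of FBXW7 and of FZR1. These 3 genes have more than 1 window each, whereas the percentages given here are per window. TTTNNCGC, a form of the E2F site found in 6.89% of all windows, was in the window of 0 of the 9 genes, and CAGCTG, an E-box found in 17.9%, in that of FBXW7 alone. The single SKP2 window holds none of these words. A match describes these letters and is not evidence of binding.

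CKS1B had 210.5 TPM in RD shSCR, 111 TPM in RD shSKP2, 120.0 TPM in JR1 shSCR and 47.1 TPM in JR1 shSKP2. CKS2 had 85.7, 58.1, 56.5 and 23.4 TPM in the same order. For both genes the JR1 shSKP2 library was the lowest and the RD shSCR library the highest. With TPM as deposited, both knockdown libraries were below both controls for CKS1B, whereas for CKS2 the RD shSKP2 library was slightly above JR1 shSCR. Without the short structural RNAs CKS1B was lower by 0.496 in RD with shSKP2 on the log2 scale. In that scaling it was higher by 0.504 in RD shSCR than in JR1 shSCR, so that RD shSKP2 was not below JR1 shSCR. The log2 change of CKS1B was -0.91 in RD and -1.33 in JR1, and that of CKS2 was -0.55 and -1.23. Both fell past the limit in JR1 and neither did in RD. The change of CKS2 in JR1 was 0.68 below that in RD, a difference that 7.85% of the tested genes matched or exceeded in size, and for CKS1B it was 0.42 below, which 22.5% matched or exceeded. These differences between the lines were not tested, and without the short structural RNA genes the change of CKS2 in JR1 was -0.997, just inside the limit. Of the windows of 100 bases in the CKS1B transcript, 15% are also found in the annotated copies CKS1BP2 or CKS1BP3, so its TPM may include or lose reads to copies, and 0 of the CKS2 windows are found in another gene.

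SKP2, the target of the shRNA, fell more than the cofactors, so their ratios to SKP2 rose although both cofactors were lower too. There were 2.27 CKS1B transcripts for each SKP2 transcript in RD shSCR and 15.0 in RD shSKP2, and 2.58 and 17.3 in JR1. The ratio rose 6.63-fold in RD and 6.71-fold in JR1. CKS1B kept a lead over CKS2 in every library, by 2.46-fold in RD shSCR, 1.92-fold in RD shSKP2, 2.12-fold in JR1 shSCR and 2.01-fold in JR1 shSKP2.

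FZR1 and CAND1 regulate the ligase from outside. FZR1, on chromosome 19 from base 3506263 to base 3538334, had 29.2 TPM in RD shSCR, 18.9 TPM in RD shSKP2, 20.0 TPM in JR1 shSCR and 12.4 TPM in JR1 shSKP2. With TPM as deposited, both knockdown libraries were below both controls, with log2 changes of -0.60 and -0.64 that were not called. Without the short structural RNAs the changes of FZR1 were -0.20 in RD and -0.41 in JR1. In that scaling it was higher by 0.24 in RD shSCR than in JR1 shSCR, so that RD shSKP2 was not below JR1 shSCR. MFSD12 overlaps the end of FZR1 and was also lower with shSKP2, at 58.1 and 35.9 TPM in RD and 90.5 and 55.6 TPM in JR1, and its part in the FZR1 values was not tested. CAND1, on chromosome 12 from base 67269358 to base 67319953, had 24.3 and 21.7 TPM in RD and 19.9 and 18.6 TPM in JR1. Its changes of -0.16 and -0.09 were, with those of SKP1, CUL1 and BTRC, among the smallest of the 10 genes.

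As a group, 1 of the 10 genes was called in RD, the target SKP2, where 8.45% of all tested genes were called, 7.37% lower and 1.08% higher. In JR1 3 genes were called, SKP2, CKS1B and CKS2, all lower, where 10.8% of all tested genes were called, 9.05% lower and 1.78% higher. The balance of calls over all tested genes depended on the scaling. Without the short structural RNAs 670 genes were called higher and 526 lower of 15219 in RD, and 747 and 1140 in JR1, and 1 and 2 of the 10 genes were called lower. The count in RD is at the background, and that in JR1 includes the transcript the shRNA was made against. The median change of the 10 genes was -0.36 in RD and -0.24 in JR1, beside -0.27 and -0.21 for all tested genes. 9 genes had a negative change in RD and 7 in JR1, against 75% and 68.9% of all tested genes. Set against the median of the tested genes, the 10 divided evenly and alike in both lines. SKP2, RBX1, CKS1B, CKS2 and FZR1 were below it, while SKP1, CUL1, FBXW7, BTRC and CAND1 were above it, and this division was also found without the short structural RNAs.

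**Figure D3:**
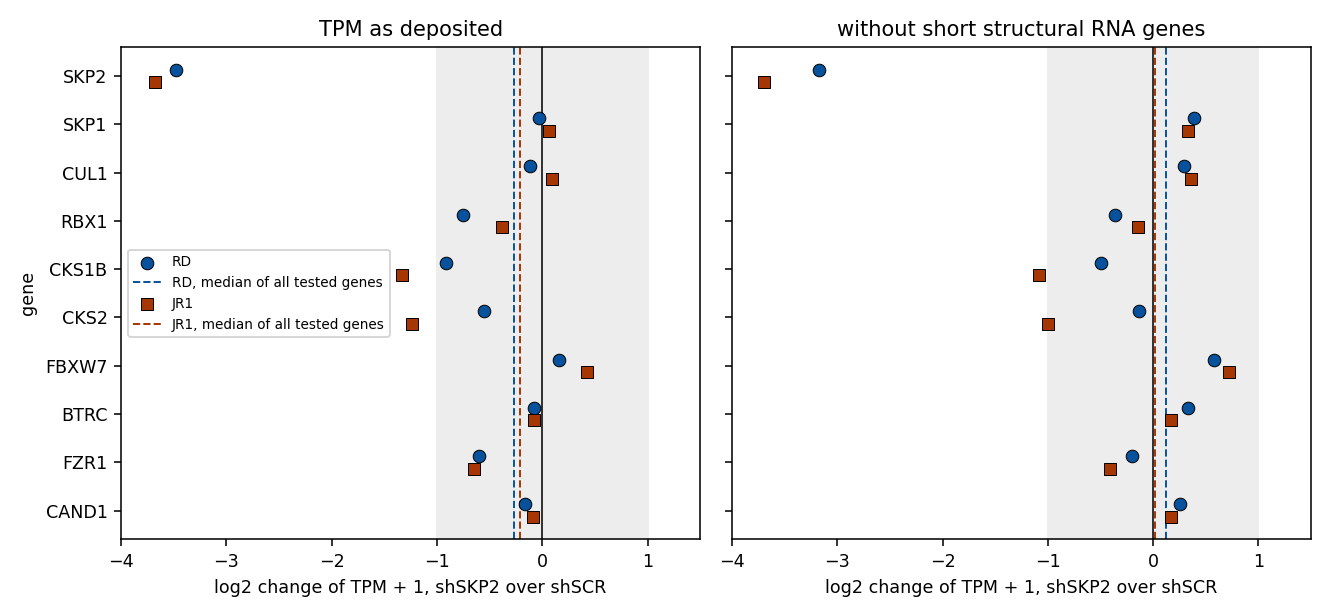
Log2 change of TPM + 1 with shSKP2 over shSCR for the 10 genes, circles for RD and squares for JR1, with TPM as deposited (left) and without short structural RNA genes (right). Dashed lines mark the median of all tested genes and the grey band changes under 1 in size. SKP2 is far outside the band for RD (-3.48 on the left) and JR1 (-3.67), and CKS1B and CKS2 leave it on the left in JR1 alone.

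Between the control cells of the lines, with TPM as deposited, SKP2 was 2.0-fold higher in RD than in JR1, a log2 difference of 0.98 that is just under the limit. CKS1B was 1.75-fold, CKS2 1.52-fold, RBX1 1.49-fold and FZR1 1.46-fold higher in RD, and FBXW7 was lower in RD by 0.30 and BTRC by 0.23 on the log2 scale. 0 of the 10 genes were called, where 9.94% of all tested genes were, 6.5% higher and 3.44% lower in RD. Without the short structural RNAs the balance turned, with 717 genes higher and 1065 lower in RD of 15219, and 0 of the 10 genes were called there too. In that scaling the log2 differences were 0.69 for SKP2, 0.50 for CKS1B, 0.30 for CKS2, 0.26 for RBX1 and 0.24 for FZR1. Those of FBXW7 and BTRC were -0.62 and -0.54. At a limit of 1.5-fold on TPM + 1, applied to TPM as deposited only, 3 genes passed, SKP2, CKS1B and CKS2. The median difference of the 10 genes was 0.41, against 0.23 for all tested genes.

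After knockdown the distance between the lines was larger for SKP2 and both cofactors. SKP2 was 2.72-fold, CKS1B 2.36-fold and CKS2 2.48-fold higher in RD shSKP2 than in JR1 shSKP2. These 3 genes were called higher in RD, where 8.1% of all tested genes were called, 5.39% higher and 2.7% lower. Without the short structural RNAs 953 of 15219 genes were called higher and 753 lower, and SKP2, CKS1B and CKS2 were again called higher. FBXW7 was lower in RD by 0.57 on the log2 scale, and 6.02% of the tested genes were lower still. CUL1, RBX1 and CAND1 differed by at most 0.21 between the lines. The comparisons within and between the lines share their libraries, so that these values and the knockdown changes are not independent.

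The 5 tested genes most like SKP2 over the 4 libraries were IFIT1, IGFBP6, PLAAT4, RSAD2 and SARAF. Likeness was the root mean squared difference of log2(TPM + 1), each gene centred on its own mean, and was 0.29 for IFIT1 and 0.51 for SARAF. IFIT1, an interferon-stimulated gene, had 62.9 TPM in RD shSCR, 9.07 TPM in RD shSKP2, 39.1 TPM in JR1 shSCR and 2.40 TPM in JR1 shSKP2. IGFBP6, which encodes a binding protein of insulin-like growth factors, had 462.5, 44.7, 175 and 10.5 TPM in the same order. Among the other 9 genes followed here, the nearest to SKP2 was CKS1B with a difference of 1.23 and the farthest was FBXW7 with 2.08.

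The wider pathway was measured with 7 lists that hold 68 genes, all tested. Over all tested genes 8.45% were called in RD and 10.8% in JR1, and at that share lists this short hold few calls or none. In the NEDD8 conjugation list, whose products load the activating NEDD8 onto cullins, 0 of 10 genes were called in either line. NEDD8 itself had the lowest change of the list in both, at 134 and 84.9 TPM in RD and 122 and 73.3 TPM in JR1, log2 changes of -0.66 and -0.73. DCUN1D3 was the highest in RD at 0.39 and UBE2F, a NEDD8-conjugating enzyme, in JR1 at 0.25. The list median was -0.15 in RD and -0.15 in JR1. In the NEDD8 removal list, the COP9 signalosome and SENP8, 0 of 11 genes were called, with medians of -0.37 and -0.22. COPS3 was the highest in both lines at 0.09 and 0.49, and the lowest were COPS7A in RD at -0.86 and COPS4 in JR1 at -0.61.

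Other cullins and the RING partner RNF7 gave 0 calls of 8 genes, between -0.60 for CUL4B and 0.03 for RNF7 in RD and between -0.42 for CUL4A and 0.20 for CUL3 in JR1, with medians of -0.38 and -0.13. The ubiquitin-conjugating partners also gave 0 calls of 8 genes, where 8.45% of all tested genes were called in RD and 10.8% in JR1. Their medians of -0.03 in RD and 0.23 in JR1 lay 0.24 and 0.44 above those of all tested genes, and all 8 were above it in JR1. UBE2D1, an enzyme that works with many RING ligases, went from 8.09 to 12.2 TPM in RD, the highest change there at 0.53. UBE2D4 had the highest change in JR1, 0.61, with 3.79 TPM in shSCR and 6.30 TPM in shSKP2 cells. UBE2R2 was the lowest in RD at -0.39, and ARIH1, itself a ubiquitin ligase and not a conjugating enzyme, in JR1 at -0.09.

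In the list of receptor exchange factors and paralogs, 1 of 4 genes was called, in JR1, where 10.8% of all tested genes were called. CDC20, the paralog of FZR1 that activates the anaphase-promoting complex in mitosis, had 99.7 and 60.8 TPM in RD and fell from 51.0 to 21.1 TPM in JR1, changes of -0.70 and -1.23, of which the latter was -0.997 without the short structural RNAs. GLMN, an inhibitor that binds RBX1, was the highest in both lines at 0.40 and 0.41. The list medians were 0.00 in RD and 0.35 in JR1. Of the 17 genes of the anaphase-promoting complex list, 1 was called in each line, beside 8.45% of all tested genes in RD and 10.8% in JR1. It was ANAPC15, a subunit of the complex, which fell in RD from 16.6 to 6.90 TPM and in JR1 from 9.43 to 4.14 TPM. These calls were not kept without the short structural RNAs, where its changes were -0.82 and -0.88. All 17 were negative in RD and 12 in JR1, where 75% and 68.9% of all tested genes were negative, and without the short structural RNAs 8 and 7 were. The list medians were -0.38 and -0.21, and the highest was ANAPC16 in RD at -0.05 and ANAPC10 in JR1 at 0.40.

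Of 10 genes whose products are reported substrates of SKP2, 3 were called in each line, where 8.45% of all tested genes were called in RD and 10.8% in JR1. CDKN1A, which encodes p21Cip1, rose from 90.3 to 201.0 TPM in RD, and in JR1 it had 111 and 191 TPM, a change of 0.78. In these 2 lines the study detected no interaction of SKP2 with p21Cip1, by co-immunoprecipitation or by proximity ligation. Its model has SKP2 act on p21Cip1 indirectly. FOXO1, a transcription factor, rose from 0.580 to 2.56 TPM in JR1, and in RD it had 3.07 and 4.52 TPM, a change of 0.44. RBL2, the p130 pocket protein, fell by 1.43 in RD and by 1.17 in JR1 on the log2 scale, from 12.1 to 3.88 TPM and from 9.34 to 3.60 TPM. MYBL2, a factor that drives mitotic genes, fell in RD from 105 to 45.7 TPM and in JR1 from 37.2 to 16.2 TPM, but without the short structural RNAs its changes were -0.77 and -0.92 and it was not called, while CDKN1A passed the limit in JR1 at 1.05. CDKN1B, which encodes p27Kip1, had changes of -0.46 and -0.21, and CDKN1C, which encodes p57Kip2, of -0.46 and 0.53, and neither was called. For p27Kip1 and p57Kip2 the study did detect an interaction with SKP2 in these lines by the same assays. It also reported higher levels of both proteins after SKP2 depletion. The list median was -0.46 in RD and -0.32 in JR1. TPM measure transcripts, while SKP2 acts on the stability of these proteins.

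**Figure D4:**
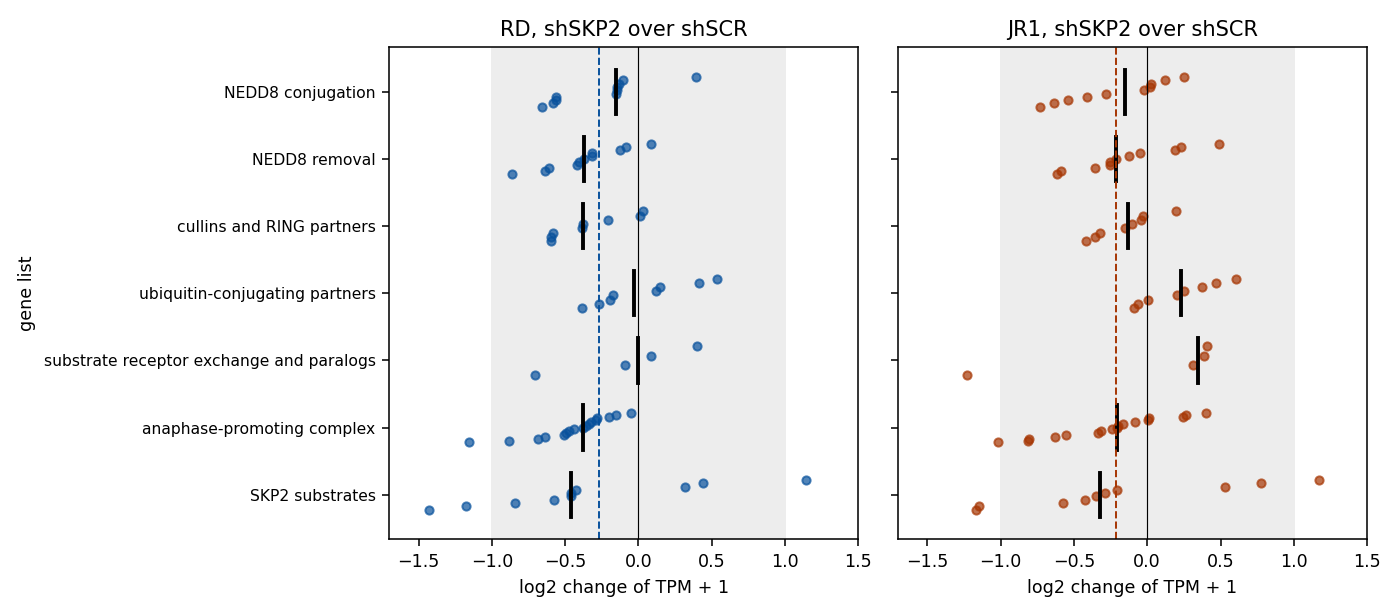
Log2 change of TPM + 1 with shSKP2 over shSCR in RD (left) and JR1 (right) for the genes of 7 pathway lists, 1 point per gene. Black bars are list medians, the dashed line is the median of all tested genes and the grey band marks changes under 1 in size. Most points lie inside the band, and the genes outside it are ANAPC15, RBL2, MYBL2 and CDKN1A in RD, and ANAPC15, CDC20, RBL2, MYBL2 and FOXO1 in JR1.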

How the data were processed

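Poly-A selected, directional RNA-seq libraries of the 4 cell groups were read as pairs of 150 bases. Per the labels and the study's methods, the authors aligned reads to GRCh38 with STAR 2.7.9a, used RSEM 1.3.2 for gene expression and deposited TPM with 2 decimals. Whether counting used strand is not given in the sources used here. TPM keep no counts, so depth and counting precision are unknown. TPM were used as deposited, with 1 TPM added before log2. Genes were tested where their mean over the libraries reached 1 TPM, and a gene was called at a log2 change of 1. No test was run: each comparison has 1 library per group, and a fit of condition with line as a term, which would take the lines as replicates, was not made.

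The 10 genes, the lists and the alternatives were chosen with earlier results of these data known. The named genes are the 10, the highest and lowest gene of each list in each line, the 5 genes nearest to SKP2 and the cell type markers. CDKN1B, CDKN1C, FBXW11 and the called list genes MYBL2 and, in JR1, CDKN1A were named after their values were seen. The ratios within a library and the printed promoters were also chosen after their values were seen. An annotated copy named after a member, SKP1P2, was listed at 0 TPM in every library. Alternatives were 0.1 TPM added, centring on the median of tested genes, removal of 658 short structural RNA genes by symbol with rescaling, no filter beyond 0 TPM, a filter at a mean of 5 TPM and a limit of 1.5-fold. Windows of 100 bases of GENCODE 44 canonical transcripts were searched in transcripts of other genes. The call procedure was run on simulated data with large seeded changes in well expressed genes and little noise. That run checks the code and does not cover low genes, a shift of scaling or a spread between replicates. Python 3.11.15, numpy 2.4.6, pandas 2.3.3 and matplotlib 3.10.9 were used.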

Additional observations from a re-analysis of the deposited data

Results flagged for a closer look

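Some of the genes named here moved in opposite directions in the lines, which was not tested, since each value rests on 1 library per condition. With shSKP2 over shSCR, SKP1 had log2 changes of -0.03 in RD and 0.07 in JR1, and CUL1 of -0.12 and 0.09. Without the short structural RNAs both genes were positive in both lines. Among the named list genes the values in RD and JR1 were -0.36 and 0.40 for ANAPC10, -0.05 and 0.27 for ANAPC16, -0.46 and 0.53 for CDKN1C, 0.03 and -0.10 for RNF7, and -0.10 and 0.25 for UBE2F. Without the short structural RNAs CDKN1C stayed opposite, at -0.16 and 0.88, and the other 4 were positive in both lines. Of all 68 list genes 16 had opposite signs in the lines with TPM as deposited, 17 without the short structural RNAs, and 4 under both.

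For 6 of the named list genes the difference of RD over JR1 had opposite signs with shSCR and with shSKP2, also untested. It was 0.43 and -0.32 for ANAPC10, -0.29 and 0.07 for CDKN1A, 0.75 and -0.24 for CDKN1C, 0.09 and -0.19 for CUL4B, -0.02 and 0.12 for RNF7, and 0.16 and -0.19 for UBE2F. Without the short structural RNAs only ANAPC10, at 0.17 and -0.49, and CDKN1C, at 0.61 and -0.43, kept opposite signs among these 6. Of all 68 list genes 13 had such opposite signs with TPM as deposited, 20 without the short structural RNAs, and 5 under both.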

How the results depend on the processing

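SKP2 was called with shSKP2 in both lines under every alternative run. The numbers of the 10 genes called were within 1.5 times the reported ones except at a limit of 1.5-fold, which gave 4 in RD and 3 between the control cells. The median of the 10 genes depended on the scaling. With 0.1 TPM added it was -0.25 in JR1, 0.43 between the control cells and 0.21 between the knockdown cells. Centred on all tested genes it was -0.087 in RD, -0.024 in JR1, 0.18 and 0.023 in the comparisons between the lines. Without short structural RNA genes it was 0.057 in RD and 0.013 in JR1, both of the other sign, and 0.12 and 0.058 between the lines. Genes with small changes also turned sign, centred and without short structural RNA genes respectively: in RD SKP1 (0.24 and 0.39), CUL1 (0.15 and 0.29), BTRC (0.19 and 0.33) and CAND1 (0.11 and 0.25), in JR1 BTRC (0.13 and 0.17) and CAND1 (0.12 and 0.17), and CUL1 between the knockdown cells (-0.093 and -0.063). CAND1 between the control cells was -0.013 without short structural RNA genes. List medians that turned positive when centred were those of NEDD8 conjugation (0.12 in RD and 0.062 in JR1), cullins (0.086 in JR1), conjugating partners (0.24 in RD), exchange factors (0.27 in RD) and the anaphase-promoting complex (0.0069 in JR1). Without short structural RNA genes they were NEDD8 conjugation (0.23 and 0.052), NEDD8 removal (0.045 and 0.010), cullins (0.00054 and 0.12), the anaphase-promoting complex (0.030 and 0.053), and in RD conjugating partners (0.37) and exchange factors (0.37). As ratios of TPM + 1, SKP2 over SKP1 was 0.330 in RD shSKP2 and 0.129 in JR1 shSKP2, and all 12 ratios of SKP2 to a core subunit stayed on the same side of 1. The labels give no replicate numbers, and the lines were compared side by side and not fitted as pairs. The unknown depth limits low values such as SKP2 in JR1 shSKP2 most.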

Other observations

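Several genes of the lists differed between the lines in both conditions, chosen after their values were seen. COPS6, a subunit of the COP9 signalosome, had 102 TPM in RD shSCR, 78.8 TPM in RD shSKP2, 201 TPM in JR1 shSCR and 168 TPM in JR1 shSKP2, lower in RD by 0.97 and 1.09 on the log2 scale. UBE2C, the conjugating enzyme of the anaphase-promoting complex, was higher in RD, with 208 and 149 TPM against 78.7 and 44.5 TPM in JR1. FBXO5, an inhibitor of that complex, had 27.6 and 20.1 TPM in RD and 8.71 and 8.78 TPM in JR1. CDT1, a replication licensing factor and reported SKP2 substrate, had 32.3 and 17.6 TPM in RD and 9.26 and 6.66 TPM in JR1.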
